A study of Mus musculus with 8 samples.

Results

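Human genetics ties 8 genes to diabetes that were followed here in mouse islets: Abcc8, Wfs1, Glis3, Tcf7l2, Jazf1, Cdkal1, Igf2bp2 and Thada. They were chosen by name, as carriers of monogenic diabetes mutations or of common type 2 diabetes association signals, and not by their values. All 8 had a value in each library, among 20715 genes listed. RNA came from pancreatic islets of C57BL/6 mice aged 12 weeks, in 4 libraries labelled ob/+ and 4 labelled ob/ob. The ob mutation disables Lep, the gene of the satiety hormone leptin, and ob/ob mice, which carry it on both copies, become obese and insulin resistant. The ob/+ controls also carry a mutant copy, so the comparison sets loss of both copies against loss of 1. Islets are bulk tissue, in which fewer cells of a type and less RNA per cell cannot be told apart.

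Genes behind monogenic diabetes mostly act inside the beta cell, in sensing glucose, folding proinsulin or keeping the cell's identity. Common risk variants lie mostly outside coding sequence, each with a small effect, and many are linked to insulin secretion. ABCC8 forms the sulfonylurea receptor of the ATP-sensitive potassium channel, whose closure after glucose entry starts insulin release. WFS1, or wolframin, is a membrane protein of the endoplasmic reticulum that limits stress there, and GLIS3 is a zinc finger transcription factor that activates the insulin gene. TCF7L2 is a Wnt pathway transcription factor, JAZF1 a zinc finger cofactor of nuclear receptors, CDKAL1 an enzyme that modifies a lysine tRNA, and IGF2BP2 a protein that binds mRNA. THADA is a large protein first found at chromosome breaks of thyroid adenomas.

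The values are in FPKM, transcript fragments scaled for transcript length and library size, a unit inferred from the values, and read depth is unknown. Libraries summed to 820968 to 880570 FPKM in ob/+ and to 920734 to 1004230 in ob/ob, and 11363 to 11883 genes reached 1 FPKM. Insulin transcripts took 42.0% to 54.3% of the sum in ob/+ and 57.1% to 65.6% in ob/ob, a marker check of the labelled tissue. Lep had no value in any library, and Lepr was at 0.948 ± 0.0978 FPKM in ob/+ and 0.905 ± 0.338 in ob/ob (SD, n = 4 each). Library ob/+ 4 stood apart: genes of acinar cells, which make digestive enzymes, took 24.9% of its sum, against 3.18% to 13.5% in the others. The median gene of that library was at 3.11 FPKM, against 3.99 to 4.08 in the other ob/+ libraries, and all 8 risk genes had their lowest ob/+ value there. Results are therefore given also without it. Nothing in the labels says that libraries came from separate mice, so p-values measure only the spread between libraries, which may be technical.

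One risk gene, Igf2bp2, nearly vanished from ob/ob islets, and its promoter is shown because no other of the 8 transcripts passed the test. The gene lies on chromosome 16 of GRCm38 (chr16:22059009-22163299, minus strand). The 250 bases before its RefSeq transcription start (chr16:22163300-22163549, GRCm38.p6, minus strand) read as follows, 5′ to 3′, with GC boxes in capitals.
Igf2bp2: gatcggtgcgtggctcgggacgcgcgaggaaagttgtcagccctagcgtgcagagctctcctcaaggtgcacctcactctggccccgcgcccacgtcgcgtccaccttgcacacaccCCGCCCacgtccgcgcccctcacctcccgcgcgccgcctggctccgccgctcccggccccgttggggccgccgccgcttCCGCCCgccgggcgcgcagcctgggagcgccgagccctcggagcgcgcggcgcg
G and C made up 77.2% of this window, more than in 97.4% of 32851 mouse promoter windows of the same length, whose median was 52.4%. The GC box (GGGCGG, searched on both strands) matched at 133 and at 54 bases before the start, and 32.7% of all windows hold it. CCAAT, in 33.8% of windows, CACGTG, in 6.02%, TATAAA, in 12.4%, and TGACG, in 17.8%, had no match on either strand.

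**Figure D1:**
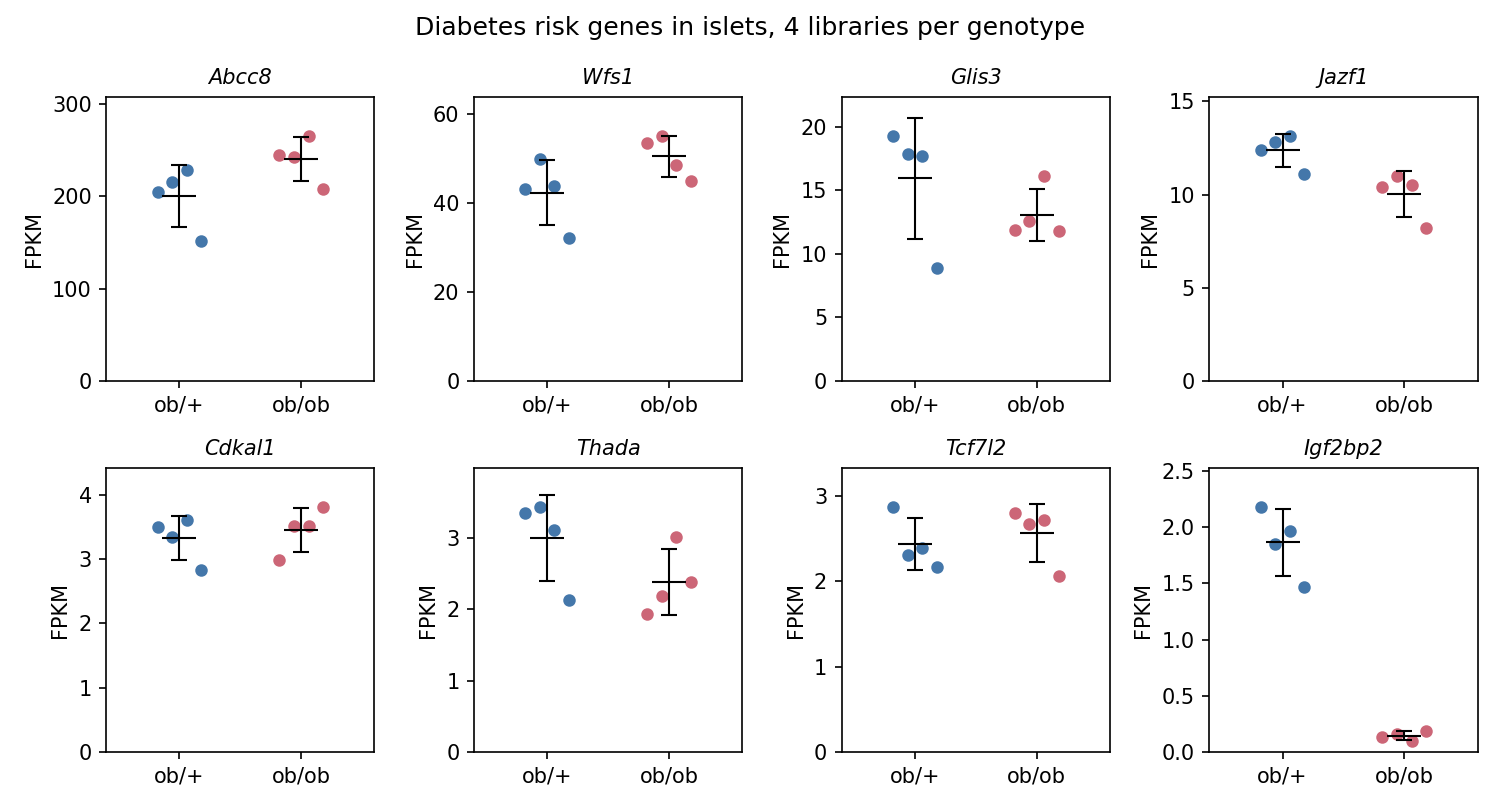
FPKM of the 8 risk genes, 1 point per library, by genotype, with bars at the mean ± SD (n = 4 each) and every axis starting at 0. The 4 ob/ob points of Igf2bp2 lie at or below 0.19 FPKM and its ob/+ points at or above 1.47, while the groups overlap for all the others except Jazf1.

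Igf2bp2 stood at 2.18, 1.85, 1.97 and 1.47 FPKM in ob/+ libraries 1 to 4 and at 0.13, 0.16, 0.10 and 0.19 in ob/ob libraries 1 to 4. Every ob/ob library was far below every ob/+ library, and the spread within either genotype was small beside the gap. The mean fell from 1.87 ± 0.298 to 0.145 ± 0.0387 FPKM (SD, n = 4 each), a 12.9-fold lower level. On the log2(FPKM + 1) scale, which understates the change of low genes, the difference was -1.32 ± 0.12 (SE; 95% interval -1.57 to -1.07). limma with Benjamini-Hochberg adjustment over all 11747 tested genes gave an adjusted p of 1.29e-08. On that tested scale 79 of those genes, Igf2bp2 included, had a difference at or below its own. By the ratio of means, which for Igf2bp2 rests on ob/ob values of 0.10 to 0.19 FPKM, the number was 5. The gene passed the expression filter (1 FPKM in at least 4 libraries) only through its ob/+ libraries, a group in which it was high. It was called lower in each of the 20 alternatives that gave it a value, with an adjusted p of 3.65e-16 to 7.33e-06, among them the alternative without a filter.

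The ob/ob values of Igf2bp2, 0.10 to 0.19 FPKM, are low, and with read depth unknown the number of reads behind them cannot be given. Among 1830 genes with a longest transcript within 10% of the length of that of Igf2bp2 (4952 bases), the smallest value above 0 was 0.01 FPKM in each library. That is also the last decimal written, so it does not measure a detection limit. Even in ob/+ islets Igf2bp2 was a low transcript, above only 10.1% of tested genes.

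The proteins of the IGF2BP family bind and stabilise target mRNAs, and IGF2BP1 and IGF2BP3 are mostly fetal. Their transcripts were lower still: Igf2bp3 was at 0.153 ± 0.0737 FPKM in ob/+ and 0.120 ± 0.0392 in ob/ob, and Igf2bp1 at 0.0075 ± 0.0050 in ob/+ and listed at 0 in every ob/ob library (SD, n = 4 each). Igf2bp2 made up 0.928, 0.925, 0.887 and 0.955 of the summed FPKM of the 3 family genes in ob/+ 1 to 4. The share in ob/ob 1 to 4 was 0.565, 0.667, 0.435 and 0.528. The family was thus almost all Igf2bp2 in ob/+, and shared with Igf2bp3 at a very low level in ob/ob. The mean share was 0.924 ± 0.0276 against 0.549 ± 0.0959 (log2 difference -0.77; exact two-sided permutation p = 0.0286 over 70 assignments, the smallest that 4 against 4 libraries allow, and 0.0286 after adjustment over the 4 ratios tested).

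Of 5 tested genes of the IGF2BP family and the insulin-like growth factor axis, 2 were called, both lower. Over all tested genes 18.8% were called and 10.6% were called lower. Besides Igf2bp2 this was Igf1r, the receptor of IGF1, at 5.12 ± 0.930 FPKM in ob/+ and 3.70 ± 0.283 in ob/ob (SD, n = 4 each; -0.37 ± 0.13 SE, limma adjusted p = 0.0473). The Igf1r call ended in 10 of 20 alternatives, including 6 of the 8 that leave out 1 library (adjusted p = 0.0882 to 0.168), and held without ob/+ 4 or ob/ob 3. Igf2, the growth factor whose mRNA gave the family its name, was at 2.13 ± 0.535 and 1.46 ± 0.337 FPKM (adjusted p = 0.0882, or 0.0331 without ob/ob 3). Hmga1, a chromatin protein, was at 32.5 ± 2.98 and 27.7 ± 3.99 FPKM (adjusted p = 0.157, or 0.0354 without ob/+ 4).

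The genes on either side of Igf2bp2 did not share the size of its difference. Senp2, a SUMO protease 9.7 kb away, was at 6.47 ± 0.827 FPKM in ob/+ and 4.89 ± 0.594 in ob/ob (-0.34 on the log2 scale, adjusted p = 0.0588, or 0.0027 without ob/+ 4). Tra2b, a splicing factor 81.2 kb away, was at 34.9 and 35.1 FPKM (0.02 on the log2 scale, adjusted p = 0.918), a difference whose sign turned in 6 of 21 alternatives. The neighbours were picked after the data were seen.

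The transcripts most like Igf2bp2 over the 8 libraries were Gad1, the enzyme that makes GABA, and Rpp25, a ribonuclease P subunit, each with a Pearson r of 0.997 on log2(FPKM + 1). Gad1 fell from 39.6 to 10.6 FPKM (-1.80 ± 0.12 SE, adjusted p = 5.73e-11) and Rpp25 from 2.84 to 0.78 (-1.11, adjusted p = 1.24e-07). Such an r over 2 separated groups of 4 libraries mostly restates a shared genotype difference and is given as a description. Marker levels of several islet cell types moved alongside Igf2bp2. Summed FPKM of 9 alpha cell markers was 25395 to 31886 in ob/+ and 9012 to 12467 in ob/ob, with 6 of 8 tested called lower and 2 higher. The 5 delta cell markers summed to 5544 to 6202 and 1029 to 1472, with 3 of 3 tested lower, and the 3 PP cell markers to 6923 to 11676 and 2719 to 4571, with 2 of 2 lower. The 6 neuron and Schwann cell markers summed to 25.0 to 29.6 and 8.72 to 12.4, with 4 of 5 lower. The 8 stellate cell and fibroblast markers summed to 46.7 to 63.1 and 23.7 to 45.2, with 3 of 7 lower, the collagen genes Col1a1, Col1a2 and Col3a1, and 1 higher, Acta2, the actin of smooth muscle and activated stellate cells. Beta cell markers, insulin included, summed to 397506 to 500785 and 587168 to 709761, with 2 of 10 higher and 4 lower. No marker was at 0 in all libraries, and the part of these cell types in the Igf2bp2 difference was not tested.

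Among the 8 risk genes, then, 1 was called (12.5%), against 18.8% of all tested genes (8.21% higher and 10.6% lower in ob/ob). That count is no larger than the background, and the median difference of the 8 was -0.09 against -0.07 for all tested genes. Groups did not overlap for 2 of the 8, Igf2bp2 and Jazf1, both lower, where 20.5% of all tested genes did not overlap and 10.7% did so with ob/ob lower. Calls across the whole table depended on library scaling: 43.7% of them were higher with the deposited values, 14.3% after rescaling to equal sums, 66.9% when scaling ignored the 10 most abundant genes, 6.5% when it ignored acinar genes and 53.2% after median centring. These scalings moved the median of all genes from -0.07 to -0.23, 0.03, -0.33 and 0.00. Under the same settings 2, 3, 3 and 3 of the 8 genes were called, where 31.0%, 16.2%, 63.4% and 29.2% of all tested genes were. Igf2bp2 was among them each time, but the others differed. They were Jazf1, lower, after rescaling, and Thada and Jazf1, lower, when scaling ignored acinar genes. Wfs1 and Abcc8, higher, were called when it ignored the 10 most abundant genes and after median centring. Without ob/+ 4 the number was 4 of 8, all lower, but 42.2% of all tested genes were then called and 32.8% were called lower. Calls that single genes gained without ob/+ 4, given below, are to be read against that share.

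**Figure D2:**
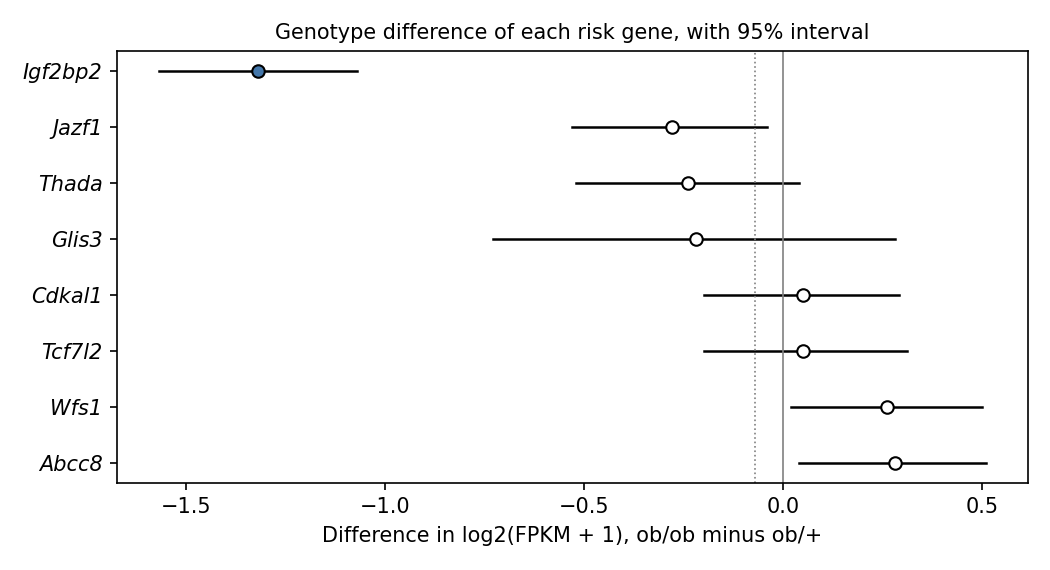
Difference in log2(FPKM + 1), ob/ob minus ob/+, for each risk gene, with its unadjusted 95% interval from limma. The filled point passed the adjusted threshold, and the dotted line marks the median of all tested genes (-0.07). Igf2bp2 (-1.32) stands apart, and the other 7 differences lie between -0.28 and 0.28.

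The levels of the 8 spread over a wide range. In ob/+ islets the order was Abcc8, Wfs1, Glis3, Jazf1, Cdkal1, Thada, Tcf7l2 and Igf2bp2, from 200.1 to 1.87 FPKM. Glis3 and Jazf1 overlapped between libraries, as did each neighbouring pair from Cdkal1 down to Igf2bp2. In ob/ob the order was the same except that Tcf7l2 stood above Thada, a pair that overlapped. Abcc8 was above 98.6% of tested genes in ob/+, Wfs1 above 91.0%, Glis3 above 72.6% and Jazf1 above 65.0%, whereas Cdkal1, Thada and Tcf7l2 were above 15.2% to 22%. Most of these genes are long. Their annotated spans ran from 23.1 kb for Wfs1 to 663.9 kb for Cdkal1, against a median of 24.2 kb over 11377 tested coding genes, and 5 of the 8 were longer than at least 94.7% of those. None of the 8 shared exonic bases with another annotated gene.

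The genes of insulin secretion and proinsulin folding were the abundant ones. Abcc8 (chr7:46104523-46180033, minus strand) stood at 204.74, 215.54, 228.46 and 151.51 FPKM in ob/+ 1 to 4 and at 245.40, 242.28, 265.88 and 208.41 in ob/ob 1 to 4. Of the ob/ob libraries only the lowest, ob/ob 4, reached into the ob/+ range. The means were 200.1 ± 33.8 and 240.5 ± 23.8 FPKM (SD, n = 4 each), a difference of 0.28 ± 0.11 (SE; 95% interval 0.04 to 0.51) that did not pass (limma adjusted p = 0.102). Abcc8 passed in 5 of 21 alternatives, always higher. Among them were the fit without ob/+ 3 (adjusted p = 0.0397) and the scaling that ignored the 10 most abundant genes (0.00751). Its sign turned to -0.02 when scaling ignored acinar genes.

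Kcnj11 encodes the pore of the same channel, assembled with ABCC8 in equal numbers, and lies 3.8 kb from Abcc8. Its levels were 59.10, 60.40, 58.94 and 43.28 FPKM in ob/+ 1 to 4 and 41.69, 47.33, 51.36 and 40.43 in ob/ob 1 to 4. The direction was opposite to that of Abcc8, with means of 55.4 ± 8.13 and 45.2 ± 5.08 (-0.28 ± 0.11 SE, adjusted p = 0.0844, or 0.00177 without ob/+ 4). The ratio of Abcc8 to Kcnj11 within a library, which does not depend on scaling, was 3.46, 3.57, 3.88 and 3.50 in ob/+ and 5.89, 5.12, 5.18 and 5.15 in ob/ob. All ob/ob ratios exceeded all ob/+ ratios. The mean rose 1.48-fold, from 3.60 ± 0.188 to 5.33 ± 0.369 (SD, n = 4 each; log2 difference 0.57, exact two-sided permutation p = 0.0286, adjusted p = 0.0286 over 4 ratios). Leaving out any 1 library gave 0.52 to 0.60. The ratio shows unequal change of the 2 subunits and not which of them changed. Of the related channel genes, Abcc9 was at 1.12 ± 0.226 and 0.938 ± 0.287 FPKM (adjusted p = 0.506) and Kcnj8 was below the filter. limma thus called 0 of 3 tested channel genes, too few to set against the 18.8% called among all tested genes. Of the 3, Abcc8 and Kcnj11 had an unadjusted p under 0.05, a level for which the share of all tested genes was not counted.

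Wfs1 (chr5:36966104-36989205, minus strand) stood at 43.26, 49.82, 43.93 and 32.24 FPKM in ob/+ 1 to 4 and at 53.45, 55.17, 48.65 and 44.91 in ob/ob 1 to 4. The upper ob/+ and lower ob/ob libraries overlapped. The means were 42.3 ± 7.33 and 50.5 ± 4.66 FPKM (SD, n = 4 each), a difference of 0.26 ± 0.12 (SE; 95% interval 0.02 to 0.50) that did not pass (limma adjusted p = 0.122). Wfs1 also passed in 5 of 21 alternatives, always higher, among them without ob/+ 2 (adjusted p = 0.0391) and with upper-quartile scaling (0.0122). Its sign turned to -0.03 when scaling ignored acinar genes.

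Cisd2 is the gene of the other form of Wolfram syndrome and encodes an iron-sulfur protein of the endoplasmic reticulum. It was at 15.6 ± 2.04 FPKM in ob/+ and 12.7 ± 0.271 in ob/ob (SD, n = 4 each; -0.27 ± 0.11 SE, adjusted p = 0.0996, or 0.00171 without ob/+ 4). The ratio of Wfs1 to Cisd2 was 2.81, 2.88, 2.60 and 2.52 in ob/+ and 4.32, 4.43, 3.77 and 3.49 in ob/ob. Again the groups did not overlap. The mean was 2.70 ± 0.172 against 4.0 ± 0.446 (SD, n = 4 each), 1.48-fold higher in ob/ob (log2 difference 0.56, exact two-sided permutation p = 0.0286, adjusted p = 0.0286 over 4 ratios, and 0.51 to 0.63 on leaving out any 1 library).

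Of 14 tested genes listed for wolframin, its partners in the endoplasmic reticulum and the stress sensors there, 1 rose and 2 fell (21.4%). The share is near the 18.8% of all tested genes, and the median was 0.10 against -0.07. Atp2a2, the calcium pump SERCA2 that refills the endoplasmic reticulum, fell from 323 ± 64.9 to 157 ± 13.3 FPKM (-1.01 ± 0.14 SE, adjusted p = 1.56e-04). Itpr1, an inositol trisphosphate receptor that releases that calcium, fell from 8.06 ± 1.74 to 4.34 ± 0.933 (-0.76 ± 0.15 SE, adjusted p = 6.54e-04). Manf, a secreted chaperone-like protein induced by stress, rose from 97.0 ± 17.0 to 132 ± 16.3 FPKM (0.45 ± 0.12 SE, adjusted p = 0.00912). The Manf call ended in 4 of 21 alternatives (adjusted p up to 0.188). One of these was the fit without both ob/+ 4 and ob/ob 1 (adjusted p = 0.0814), whereas leaving out any 1 library kept the call. The sensors Eif2ak3, Ern1 and Atf6 were not called (adjusted p = 0.417, 0.358 and 0.847), nor was the chaperone Hspa5 (369 ± 59.4 and 429.7 ± 49.4 FPKM, adjusted p = 0.162, though 0.0211 and 0.0434 without ob/+ 2 and without ob/ob 3).

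**Figure D3:**
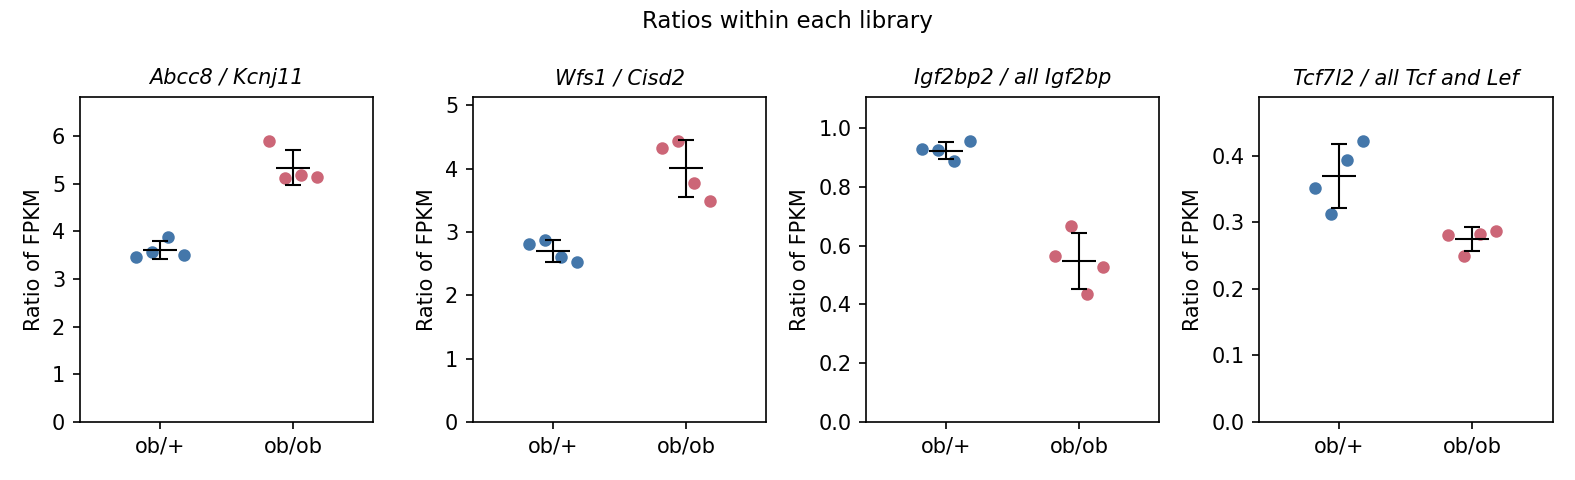
Ratios of FPKM within each library, 1 point per library by genotype, with bars at the mean ± SD (n = 4 each) and axes starting at 0. Abcc8 over Kcnj11 and Wfs1 over Cisd2 are each 1.48-fold higher in ob/ob, and the shares of Igf2bp2 in its family and of Tcf7l2 in the TCF/LEF factors are lower, with no overlap in any panel.

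The 3 transcription regulators gave no call. Glis3 (chr19:28258851-28680077, minus strand) stood at 19.31, 17.90, 17.69 and 8.87 FPKM in ob/+ 1 to 4 and at 11.85, 12.56, 16.13 and 11.80 in ob/ob 1 to 4. The first 3 ob/+ libraries were above every ob/ob library, and ob/+ 4 was below all of them. The means were 15.9 ± 4.77 and 13.1 ± 2.06 FPKM (SD, n = 4 each), a difference of -0.22 ± 0.22 (SE; 95% interval -0.73 to 0.28; limma adjusted p = 0.552). Without ob/+ 4 it was -0.46 with an adjusted p of 0.00145, and without both ob/+ 4 and ob/ob 1, the libraries richest in acinar transcripts, the adjusted p was 0.00555.

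Of 13 tested GLIS family genes and known GLIS3 partners or targets, 1 rose and 3 fell (30.8%), with a median of -0.18. Over all tested genes 18.8% were called, with a median of -0.07. Mafa, a beta cell transcription factor, fell from 122 ± 12.6 to 54.9 ± 9.18 FPKM (-1.15 ± 0.11 SE, adjusted p = 4.12e-08), and Neurod1, another, from 91.6 ± 11.7 to 59.1 ± 4.88 (-0.62 ± 0.10 SE, adjusted p = 9.30e-05). Ccnd2, the cyclin D2 gene that beta cells need to proliferate and a reported GLIS3 target, fell from 145 ± 39.1 to 74.6 ± 3.24 FPKM (-0.90 ± 0.21 SE, adjusted p = 0.020). The Ccnd2 call ended in 6 of the 8 alternatives that leave out 1 library (adjusted p = 0.0563 to 0.0669) and held without ob/+ 4 or ob/ob 3. Ins2, an insulin gene that GLIS3 is known to activate, was higher by 0.56 (adjusted p = 5.40e-05). The Ins2 call ended in 4 of 21 alternatives, none of them leaving out a library (adjusted p up to 0.456). Ins1, the other mouse insulin gene, was not called (0.25, adjusted p = 0.216), and its groups overlapped. Glis2, the nearest relative, was at 7.09 ± 0.962 and 5.84 ± 0.926 FPKM (adjusted p = 0.205, or 0.0236 without ob/+ 4).

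Tcf7l2 (chr19:55741820-55933654, plus strand) has a human counterpart linked to one of the common variants with the strongest known effects on type 2 diabetes risk. The mouse transcript stood at 2.87, 2.31, 2.39 and 2.17 FPKM in ob/+ 1 to 4 and at 2.80, 2.67, 2.72 and 2.06 in ob/ob 1 to 4. The genotypes covered nearly the same range. The means were 2.44 ± 0.304 and 2.56 ± 0.339 FPKM (SD, n = 4 each), a difference of 0.05 ± 0.12 (SE; 95% interval -0.20 to 0.31; limma adjusted p = 0.812) whose sign turned in 3 of 20 alternatives. Its share of the summed FPKM of the 4 TCF/LEF factors was 0.352, 0.313, 0.394 and 0.422 in ob/+ and 0.281, 0.249, 0.283 and 0.287 in ob/ob. The shares did not overlap, with means of 0.370 ± 0.048 and 0.275 ± 0.0176 (log2 difference -0.42, exact two-sided permutation p = 0.0286, adjusted p = 0.0286 over 4 ratios). The adjusted p was 0.0571 on leaving out any 1 ob/ob library (log2 difference -0.37 to -0.44). Tcf7l1, a repressor of the same family, held most of the rest, at 3.74 ± 1.04 FPKM in ob/+ and 5.83 ± 1.54 in ob/ob (0.53 ± 0.18 SE, adjusted p = 0.0527, and 0.0134 to 0.0334 without ob/+ 1, ob/+ 2 or ob/ob 4). Tcf7 and Lef1 were below the filter.

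Among 18 tested TCF/LEF factors, partners and feedback targets of beta-catenin, 1 rose and 4 fell (27.8%), with a median of -0.16. For all tested genes the called share was 18.8% and the median -0.07. Axin2, the standard feedback target of Wnt signalling, fell from 2.60 ± 0.349 to 1.5 ± 0.322 FPKM (-0.53 ± 0.13 SE, adjusted p = 0.00426). The Groucho corepressors that bind these factors moved in opposite directions: Tle3 fell from 19.3 ± 3.66 to 9.71 ± 1.67 (-0.92 ± 0.14 SE, adjusted p = 3.25e-05) and Tle1 rose from 7.86 ± 1.69 to 13.8 ± 2.01 (0.75 ± 0.14 SE, adjusted p = 4.02e-04). Both directions held in all 21 alternatives. Axin1, a scaffold of the beta-catenin destruction complex, and Isl1, an islet transcription factor described as a TCF7L2 target, were called lower (each -0.36, adjusted p = 0.0486 and 0.0439). The Axin1 call ended in 7 of 8 alternatives that leave out 1 library (adjusted p = 0.0626 to 0.19, all but ob/+ 4) and that of Isl1 in 6 of 8 (0.0515 to 0.149, all but ob/+ 4 and ob/ob 3).

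Jazf1 (chr6:52768797-53068631, minus strand) stood at 12.41, 12.82, 13.16 and 11.11 FPKM in ob/+ 1 to 4 and at 10.39, 11.01, 10.52 and 8.21 in ob/ob 1 to 4. The groups just failed to overlap, between ob/+ 4 and ob/ob 2. The means were 12.4 ± 0.897 and 10.03 ± 1.24 FPKM (SD, n = 4 each), a difference of -0.28 ± 0.12 (SE; 95% interval -0.53 to -0.04) that did not pass (limma adjusted p = 0.0987). It passed in 7 of 21 alternatives, always lower, among them without ob/+ 4 (-0.33, adjusted p = 0.0103). With Jazf1 itself, 18 tested genes (its orphan nuclear receptor partners, its tumour fusion partner Suz12 and the TIP60 acetyltransferase complex) had a median of -0.22. limma called 0 of the 18, and 7, all lower, had an unadjusted p under 0.05. Over all tested genes the median was -0.07 and 18.8% were called, each of which also had an unadjusted p under 0.05. The full share of all tested genes at that unadjusted p was not counted, so the 7 are given as a description. Kat5, the catalytic subunit TIP60, was at 20.1 ± 2.37 and 16.6 ± 1.26 FPKM (adjusted p = 0.113).

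The last 2 genes act on tRNA and in less well defined roles. Cdkal1 (chr13:29191746-29855674, minus strand) stood at 3.50, 3.35, 3.60 and 2.83 FPKM in ob/+ 1 to 4 and at 2.99, 3.51, 3.52 and 3.81 in ob/ob 1 to 4. The genotypes overlapped over most of their range. The means were 3.32 ± 0.342 and 3.46 ± 0.341 FPKM (SD, n = 4 each), a difference of 0.05 ± 0.12 (SE; 95% interval -0.20 to 0.29; limma adjusted p = 0.829) whose sign turned in 4 of 20 alternatives. Of 15 tested tRNA modification enzymes and CDK5 regulators, Cdkal1 included, 1 was called (6.67%, against 18.8% of all tested genes). This was Cdk5r1, the p35 activator of CDK5, at 1.90 ± 0.458 and 2.78 ± 0.419 FPKM (0.39 ± 0.14 SE, adjusted p = 0.0462). Its call ended in 14 of 20 alternatives, 7 of them leaving out 1 library (adjusted p = 0.0536 to 0.127, all but ob/+ 2). The relative Cdk5rap1, which modifies mitochondrial tRNA by a similar reaction, was at 3.81 ± 1.15 and 3.23 ± 0.637 FPKM (adjusted p = 0.507).

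Thada (chr17:84190076-84466205, minus strand) stood at 3.35, 3.44, 3.11 and 2.13 FPKM in ob/+ 1 to 4 and at 1.94, 2.19, 3.02 and 2.38 in ob/ob 1 to 4. As with Glis3, ob/+ 1 to 3 were above every ob/ob library and ob/+ 4 lay among them. The means were 3.01 ± 0.601 and 2.38 ± 0.462 FPKM (SD, n = 4 each), a difference of -0.24 ± 0.14 (SE; 95% interval -0.52 to 0.04; limma adjusted p = 0.239). Without ob/+ 4 it was -0.36 with an adjusted p of 0.0189. With an acinar covariate the differences were -0.52 for Glis3 (limma adjusted p = 0.0887), -0.41 for Thada (0.0434) and -0.36 for Jazf1 (0.0372). When scaling ignored acinar genes they were -0.5 (adjusted p = 0.0527), -0.45 (0.00479) and -0.56 (2.97e-04). Of all tested genes 28.1% were called with the covariate and 63.4% with that scaling. Whether acinar RNA caused any part of these differences was not tested.

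The 8 were set within wider lists of the same class, 45 genes of monogenic diabetes and 94 near common type 2 diabetes signals. Of 41 tested monogenic genes 5 rose and 3 fell (19.5%), and of 74 tested association genes 7 rose and 13 fell (27.0%), each with a median of -0.05. Leaving aside the 8, 27 of 99 tested genes in either list were called (27.3%), 12 higher and 15 lower. For both lists together the number called was 28 (26.2%, against 18.8% of all tested genes). Without ob/+ 4 it was 53 (49.5%), while the share of all tested genes rose to 42.2%.

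Among monogenic genes the changes ran both ways. Slc2a2, the glucose transporter GLUT2, fell from 213 ± 27.6 to 86.6 ± 10.3 FPKM (-1.29 ± 0.10 SE, adjusted p = 2.09e-09). That is close to the Igf2bp2 difference only on the log2(FPKM + 1) scale. By the ratio of means Slc2a2 was 2.46-fold lower and Igf2bp2 12.9-fold. Gata6, a transcription factor of pancreas formation, fell from 5.04 ± 0.477 to 2.18 ± 0.287 (-0.93 ± 0.12 SE, adjusted p = 3.73e-06), as did Neurod1. Dnajc3, a cochaperone of the endoplasmic reticulum, rose from 59.2 ± 9.37 to 103 ± 10.3 FPKM (0.80 ± 0.11 SE, adjusted p = 4.35e-06). Rfx6, a transcription factor of islet cells, rose from 43.1 ± 4.12 to 68.9 ± 4.22 (0.67 ± 0.10 SE, adjusted p = 1.61e-05), as did Manf and Ins2.

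Among association genes Hhex, a delta cell transcription factor that also stands in the delta cell marker list, fell from 6.75 ± 2.0 to 2.55 ± 0.432 FPKM (-1.10 ± 0.17 SE, adjusted p = 1.00e-04). Tspan8, a tetraspanin, fell from 20.03 ± 2.57 to 9.33 ± 2.73 (-1.06 ± 0.16 SE, adjusted p = 1.59e-04). Slc30a8, the zinc transporter of insulin granules, fell from 363 ± 57.2 to 239 ± 22.4 (-0.59 ± 0.10 SE, adjusted p = 2.46e-04), and Bcar1, an adaptor of cell adhesion, from 27.4 ± 3.54 to 18.7 ± 1.37 (-0.52 ± 0.11 SE, adjusted p = 0.00152). Tmem154, a transmembrane protein, rose from 1.52 ± 0.234 to 3.51 ± 0.675 FPKM (0.83 ± 0.13 SE, adjusted p = 4.31e-05). These calls, and those of Slc2a2, Gata6, Dnajc3 and Rfx6, held in every alternative that gave a value.

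**Figure D4:**
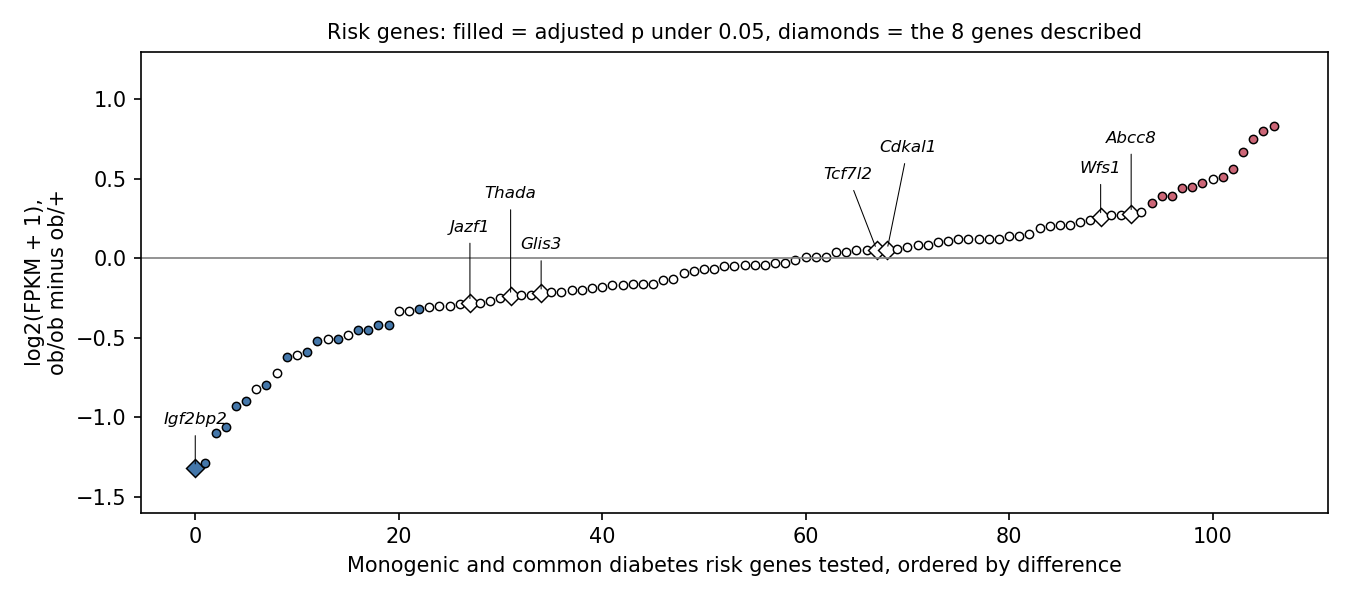
Difference in log2(FPKM + 1), ob/ob minus ob/+, of the 107 tested genes in either risk list, ordered by size, with filled points past the adjusted threshold and diamonds for the 8 genes described. Igf2bp2 (-1.32) has the most negative value of all 107, followed by Slc2a2 (-1.29), and the other 7 diamonds lie in the unfilled middle.

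For each of the other 7 genes, the 2 transcripts most like it over the 8 libraries had a Pearson r of 0.947 to 0.996, and limma called 0 of those 14 (3 had an unadjusted p under 0.05). They were picked for likeness to genes that were not called in these libraries, so that 0 adds no information. Examples were Snrnp70, a splicing factor, with Abcc8 (0.996), Gorasp1, a Golgi stacking protein, with Wfs1 (0.989), and Mrpl13, a mitochondrial ribosomal protein, with Cdkal1 (0.988). These points share their libraries, which differ in insulin and acinar share, and the values are descriptions over 8 points.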

How the data were processed

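RNA from hand-picked islets was sequenced in 8 libraries, 4 ob/+ and 4 ob/ob, grouped by labelled genotype. The authors deposited 1 value per gene and library, taken here as FPKM from the values themselves, since neither file headers nor labels name the unit. The submitters' processing notes name DESeq2 1.20.0, Trimmomatic 0.36, GRCm38 and mm10, with no role for any. No source used here gives the aligner, the quantifier or strand use. FPKM is relative to the library, so a larger insulin or acinar share lowers other genes, and with no counts no counting interval could be given.

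Of 20715 genes 3314 had no value. The 11747 genes that reached 1 FPKM in 4 or more libraries entered a fit of genotype on log2(FPKM + 1), by limma 3.58.1 (R 4.3.3, statmod 1.5.0) with the trend and robust options of eBayes. A gene was called where its two-sided p, after Benjamini-Hochberg adjustment over these genes, was below 0.05. Leave-out fits kept the same genes. The procedure was tested on simulated data with known changes on the log2 scale. It called 54% of changes of size 0.5 and 96% of changes of size 1, so a gene not called may still differ. Folds are ratios of mean FPKM. The 4 within-library ratios had exact permutation tests, in Python 3.11.15 with pandas 2.3.3. No libraries were duplicates (correlation of log2 values 0.987 to 0.996 within genotypes, at most 2.61% identical values).

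The 8 genes and all lists were chosen with earlier results of these data known. Named genes were the 8, Lep and Lepr, up to 6 genes per list with the smallest p, every gene of lists under 16, and the 2 most correlated tested genes of each of the 8. Flanking genes were added after seeing values. Positions come from GENCODE M21 (GRCm38), and the promoter from RefSeq (GRCm38.p6), in which 7 of the 8 matched. Alternatives covered pseudocount, filter, library scaling, the robust option, an acinar covariate, a block by replicate number and leave-out fits. The pair of libraries richest in acinar transcripts was left out as an alternative chosen after seeing the data.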

Additional observations from a re-analysis of the deposited data

Results flagged for a closer look

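In 9 of 114 groups of 4 libraries checked, 1 library lay far from the other 3 by Dixon's test at its 95% limit, where chance gives about 1 in 20 groups. Library ob/+ 4 was the low one for Glis3 (8.87 FPKM), Ccnd2 (86.97), Atp2a2 (225.99) and Kcnj11 (43.28). It is also the library with the largest acinar share (24.9%), whose part in these values was not tested. Library ob/ob 4 was the high one for Dnajc3 (118.71 FPKM) and the low one for Crmp1, a gene beside Wfs1 (14.52 FPKM). For Igf2bp1 the library ob/+ 2 was listed at 0.0 FPKM, where the others were at 0.01, the last decimal written. The ratio of Abcc8 to Kcnj11 was highest in ob/ob 1 (5.89), and the share of Tcf7l2 among the TCF/LEF factors was lowest in ob/ob 2 (0.249).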

How the results depend on the processing

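Igf2bp2 was called lower in all 20 alternatives that gave it a value (log2 difference -3.01 with a pseudocount of 0.1 to -1.25), and was not tested at a mean of at least 5 FPKM. The number of the 8 genes called, 1 as reported, was 0 at a mean of at least 5 FPKM, where only 4 were tested, and 2 after rescaling to equal sums. It was 3 when scaling ignored the 10 most abundant genes and with median centring (Wfs1 and Abcc8 higher, Igf2bp2 lower). A different 3 were called when scaling ignored acinar genes and with the acinar covariate (Igf2bp2, Thada and Jazf1, all lower). Without both ob/+ 4 and ob/ob 1 the 3 were Glis3, Igf2bp2 and Jazf1, all lower. Which genes were called, and in which direction, thus depended on the setting. The number was 4 with upper-quartile scaling (Wfs1 and Abcc8 higher, Igf2bp2 and Jazf1 lower), and 1 to 4 on leaving out 1 library. Among all genes, 2208 as reported, the number was 1469 with the mean filter, where fewer genes were tested, 3645 after rescaling, 7452 when it ignored acinar genes, 3429 with median centring, 3465 with upper-quartile scaling, 4183 without both acinar-rich libraries and 1546 to 4955 on leaving out 1 library. In both risk lists, 28 as reported, it was 18 with the mean filter, 60 when it ignored acinar genes, 46 without both libraries and 20 to 53 on leaving out 1. Where no reason is given, the cause was not tested. With the replicate block 2674 genes and 4 of the 8 (Wfs1 and Abcc8 higher, Igf2bp2 and Jazf1 lower) were called. Deviations of same-numbered libraries correlated at -0.22, 0.212, 0.172 and 0.124 for numbers 1 to 4. Libraries ob/+ 2 and ob/+ 3 correlated best with the ob/ob library of their own number, and ob/+ 1 and ob/+ 4 did not. With so few libraries these values cannot decide whether same-numbered libraries were handled together, and the labels give no pairing. Signs turned for Wfs1 (-0.03), Abcc8 (-0.02), Tcf7l2 (-0.16), Cdkal1 (-0.19), Tra2b (-0.27) and Hspa5 (-0.07) when scaling ignored acinar genes. They turned for Tcf7l2 (-0.08), Cdkal1 (-0.09) and Tra2b (-0.15) after rescaling, and for Cdkal1 (-0.05) and Tra2b (-0.13) with the acinar covariate. Without ob/+ 4 they turned for Cdkal1 (-0.01) and Tra2b (-0.11), without ob/ob 3 for Tra2b (-0.01, where leaving out 1 library gave -0.11 to 0.08), and without both acinar-rich libraries for Tcf7l2 (-0.02) and Tra2b (-0.08). The share of Tcf7l2 among the TCF/LEF factors differed by -0.35 to -0.50 on leaving out 1 library, with an adjusted p of 0.0571 without any 1 ob/ob library. The other 3 ratios kept their direction and an adjusted p under 0.05 wherever they were recomputed, with Abcc8 over Kcnj11 at 0.52 to 0.60, Wfs1 over Cisd2 at 0.51 to 0.63 and the Igf2bp2 share at -0.66 to -0.87. Depth is unknown, so small differences of the low genes Tcf7l2, Cdkal1 and Thada cannot be bounded by counting error.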

Other observations

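Around the 8 genes, 16 flanking protein-coding genes had a value, 14 were tested and 3 were called, where 18.8% of all tested genes were. Beside Wfs1, Ppp2r2c, a phosphatase subunit 11 kb away, fell by 0.86 on the log2 scale (limma adjusted p = 5.6e-05), and Crmp1, a protein of axon guidance 252.7 kb away, rose by 0.88 (adjusted p = 1.6e-05). Beside Abcc8, Ush1c, a scaffold protein 15.3 kb away, rose by 0.51 (adjusted p = 0.00118), a call that ended in 1 of 21 alternatives. Wfs1 and Abcc8 themselves were not called. Zfp36l2 and Tax1bp1, the nearest neighbours of Thada and Jazf1 at 2.1 and 2.0 kb, were not called.

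Slc29a3, a lysosomal nucleoside transporter whose loss causes a syndrome with diabetes, was the remaining called monogenic gene, named after its values were seen. It was at 3.92 ± 0.380 FPKM in ob/+ and 5.42 ± 0.348 in ob/ob (SD, n = 4 each; limma adjusted p = 0.0226), and the call ended in 7 of 20 alternatives, 4 of them leaving out 1 library (ob/+ 1, ob/ob 1, ob/ob 3 or ob/ob 4, adjusted p = 0.0506 to 0.0783).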
